A study of Mus musculus with 9 samples.

Results

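The genes described here are the nuclear-encoded parts of oxidative phosphorylation, the chain of mitochondrial protein complexes that passes electrons from nutrients to oxygen and uses the energy to make ATP. They were chosen by name alone: protein-coding symbols that start with Nduf, Uqcr, Atp5, Cox4i, Cox5, Cox6, Cox7 or Cox8, or that are Sdha, Sdhb, Sdhc, Sdhd or Cycs, with a mean level of at least 1 CPM (counts scaled to a common library size) over all 9 libraries. Of the 47729 rows of the count table, 94 carried such a symbol and 91 reached the minimum. These 91 are called the members. They comprise 36 subunits of complex I, 8 assembly factors of complex I, the 4 subunits of complex II, 8 subunits of complex III and cytochrome c. A further 17 are grouped with complex IV and 17 with complex V, Cox7a2l and Atp5s among them, and not each of these need be a regular subunit. All 91 also passed the filter on low counts in each comparison. Just inside the minimum lay Cox8b, Cox7a1 and Ndufa4l2, and below it lay Cox6a2 at 0.2526 CPM, Cox7b2 at 0.04917 CPM and Cox8c, which was at 0 in all 9 libraries. Ndufa4 and Ndufa4l2 are grouped with complex IV, where the protein NDUFA4 belongs. A few true subunits have other names in this table and are not members, among them Cyc1 of complex III and Usmg5 of complex V.

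Whole mouse retinas were sequenced in bulk, with 3 libraries in each of 3 groups, to ask what the loss of the co-activator Yap from Müller glia does to the retina. The control retinas came at postnatal day 60 (P60) from C57Bl6/J mice with Yap flox/flox and no Cre, although the genotype field of these samples reads Yap CKO. The Yap CKO retinas came at P60 from Yap flox/flox mice that also carried Rax-CreERT2, a tamoxifen-activated Cre expressed from the Rax gene, which in the grown retina is active in Müller cells. All P60 animals, controls included, received 4-hydroxytamoxifen (4-OHT) at P10, and each P60 sample held 1 retina. The C57 retinas were wild-type C57Bl6/J at P30 and were re-analysed from an earlier series. The descriptions of all P60 libraries carry the letters MNU. In the published study these stand for N-methyl-N-nitrosourea, which kills photoreceptors, but the labels used here describe no such treatment. Only Müller cells lose Yap in this design, so a change within them is diluted in whole-retina RNA. In such RNA, fewer cells of a type and less RNA per cell cannot be told apart.

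Library totals were 13760765 to 16808499 counts in C57 and 34739679 to 37629264 in the P60 groups. Yap1 lay at 15.3 to 24.3 CPM in the Yap CKO libraries and at 57.6 to 67.4 CPM in the controls, and at 23.4 to 30.4 CPM in C57. The mean log2(CPM + 1) of 20 rod genes was 11.52 to 11.7 in C57, 7.07 to 9.242 in the controls, and 9.334, 8.47 and 5.471 in Yap CKO 1, 2 and 3. Yap CKO 3 stood apart: it was lowest in rod genes, and its 14 lens genes summed to 1500 CPM against at most 34.17 CPM elsewhere. By Y-linked counts the 3 controls and Yap CKO 3 were male and Yap CKO 1 and 2 were female, while C57 2 was male and the other C57 libraries female. Of the C57 libraries, 1 has a number in its column name that no sample description gives, and it is called the unnumbered C57 library. Nothing in the labels says that libraries of a group came from separate litters or days. Skeletal muscle genes, which mark a tissue with other isoforms of complex IV, summed to 3.846 to 8.297 CPM in every library.

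Complex I takes electrons from NADH, complex II from succinate, and both pass them to ubiquinone. Complex III hands them on to cytochrome c, complex IV gives them to oxygen, and complex V, the ATP synthase, uses the proton gradient that complexes I, III and IV build up. The retina is among the tissues with the highest oxygen use, and rod and cone inner segments are packed with mitochondria. Müller glia lean more on glycolysis. The transcription factors NRF1, GABP (of the ETS family), YY1 and the oestrogen-related receptors are known to bind promoters of many of these genes.

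Promoters of 4 members are shown because their genes carry the comparisons below: Cox6a1 had the smallest p between Yap CKO and control, Atp5h, Uqcrh and Ndufa4 fell far from C57 to control, and Ndufa4 holds none of the motifs searched. Each runs 5′ to 3′ on the gene's own strand, from 250 bases before to 50 bases after the gene's start in RefSeq, build GRCm38.p6. Capitals mark a match on either strand to the NRF1 motif GCGCANGCG or the ETS motif CCGGAAG, read as CTTCCGG on the opposite strand.
Cox6a1, chr5:115348909-115349208, minus strand: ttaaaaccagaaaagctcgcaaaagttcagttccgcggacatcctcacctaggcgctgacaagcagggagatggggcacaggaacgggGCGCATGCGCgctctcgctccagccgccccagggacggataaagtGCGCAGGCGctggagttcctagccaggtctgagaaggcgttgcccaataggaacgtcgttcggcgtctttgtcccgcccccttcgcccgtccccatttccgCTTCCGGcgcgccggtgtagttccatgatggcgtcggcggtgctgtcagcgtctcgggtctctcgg
Atp5h, chr11:115419870-115420169, minus strand: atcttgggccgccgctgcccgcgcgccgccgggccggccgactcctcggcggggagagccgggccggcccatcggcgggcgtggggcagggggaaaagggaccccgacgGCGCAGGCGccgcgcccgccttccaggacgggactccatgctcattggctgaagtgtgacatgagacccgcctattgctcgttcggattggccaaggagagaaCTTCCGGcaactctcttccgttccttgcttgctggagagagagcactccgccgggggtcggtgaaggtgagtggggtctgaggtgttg
Uqcrh, chr4:116075021-116075320, minus strand: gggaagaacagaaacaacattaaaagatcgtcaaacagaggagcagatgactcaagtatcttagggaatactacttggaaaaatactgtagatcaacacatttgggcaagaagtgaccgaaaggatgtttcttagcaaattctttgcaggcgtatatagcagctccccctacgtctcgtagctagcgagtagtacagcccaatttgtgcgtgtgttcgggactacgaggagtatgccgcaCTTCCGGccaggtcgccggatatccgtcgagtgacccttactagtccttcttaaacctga
Ndufa4, chr6:11907401-11907700, minus strand: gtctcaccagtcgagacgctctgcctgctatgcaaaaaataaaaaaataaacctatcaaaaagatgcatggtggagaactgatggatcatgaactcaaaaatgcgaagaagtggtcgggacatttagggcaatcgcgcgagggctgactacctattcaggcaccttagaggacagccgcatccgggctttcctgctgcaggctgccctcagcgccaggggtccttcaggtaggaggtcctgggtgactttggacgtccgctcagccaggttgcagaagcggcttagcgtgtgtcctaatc

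A promoter was found by symbol for 74 of the 91 members. The NRF1 motif was present in 23 of the 74 (31.1%), against 7.03% of all 27025 genes with promoters of the same length, the members among them. The ETS motif was present in 18 (24.3%, against 9.93%), the YY1 motif AAGATGGCG in 8 (10.8%, against 1.64%) and the oestrogen-related receptor motif TCAAGGTCA in 2 (2.7%, against 0.47%). The SP1 motif GGGCGG was present in 33 (44.6%, against 38.2%), so its share lay close to that of all promoters. Matches on both strands were counted. The NRF1 and YY1 motifs were first searched in longer forms and shortened after those results had been seen. The longer forms gave 19 members (25.7%, against 5.19%) for NRF1 and 5 (6.8%, against 0.75%) for YY1. Matches to the YY1, receptor and SP1 motifs are not marked by capitals. Cox6a1 and Atp5h hold both the NRF1 and the ETS motif, and Uqcrh holds the ETS motif. A match is a run of letters and not a measured binding site. For the NRF1 motif the median log2 fold change from C57 to control was -0.42 with and -0.33 without, and for the ETS motif -0.24 with and -0.39 without. From control to Yap CKO the medians were 0.29 and 0.26 for NRF1 and 0.32 and 0.26 for ETS.

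Levels are given as CPM scaled over all 9 libraries by TMM, in the order C57 1, C57 2, unnumbered C57, and libraries 1, 2 and 3 of the other groups. CPM favours long genes, so genes are compared with each other only after division by the length of their exons (CPM per kilobase). On that scale the F1 head of the ATP synthase led, with Atp5b, which encodes the catalytic beta subunit, at 350.6 and Atp5a1, the alpha subunit, at 311.3 (means over 9 libraries). Cox8a at 292.8 and Cox4i1 at 181.5 were the highest in complex IV. Uqcrh, the hinge protein of complex III, headed its complex at 122, Ndufb11 headed complex I at 122.9 and Sdha, the flavoprotein that binds succinate, headed complex II at 110. The lowest of their complexes were Ndufa4l2 in complex IV at 1.505, Atp5s in complex V at 5.223 and Ndufab1 in complex I at 5.675 CPM per kilobase. Exon lengths join all annotated isoforms, so genes with long retained-intron isoforms are understated.

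**Figure D1:**
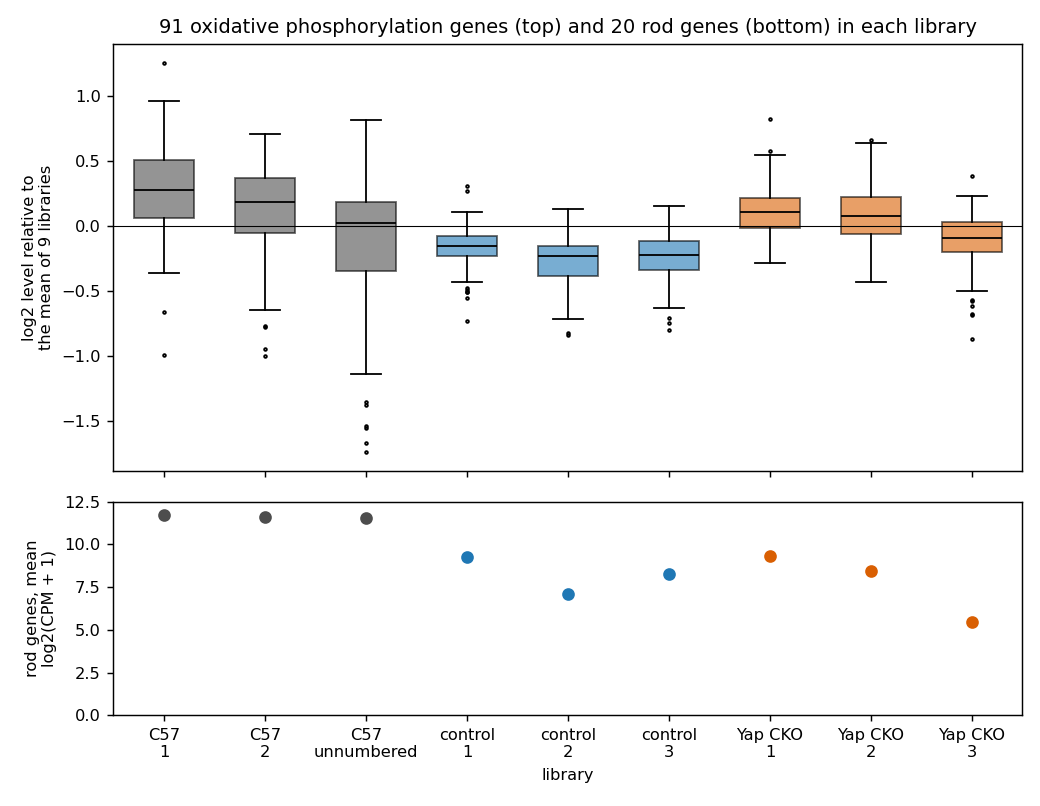
Top: box plots of the log2 level of the 91 members in each library, each gene relative to its own mean over 9 libraries (box, quartiles, whiskers to 1.5 times the box, dots beyond). Bottom: the mean log2(CPM + 1) of 20 rod genes. Members' medians were below 0 in the 3 controls and in Yap CKO 3, and above 0 in the C57 libraries and Yap CKO 1 and 2.

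As a group, the members took 1.114%, 1.063% and 0.9224% of all counts in C57, 0.9428%, 0.9448% and 0.9462% in the controls and 1.135%, 1.145% and 1.014% in Yap CKO. The controls were nearly equal to each other, and each Yap CKO library lay above all of them. In the plot of levels by library, where each gene counts equally, the median log2 level relative to the 9-library mean was -0.152 to -0.228 in the controls and 0.104, 0.073 and -0.091 in Yap CKO 1, 2 and 3. Yap CKO 3, lowest in rod genes, was the lowest Yap CKO library for 74 of 91 members, and control 2, lowest in rod genes among controls, was the lowest control for 62. Neither count was made over all genes, so they are not shown to be particular to the members. The part of rod content in these differences was not tested.

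Between Yap CKO and control retinas, no member passed the adjusted threshold of 0.05, and yet nearly all leaned the same way. By edgeR's quasi-likelihood test 0 of 91 members were called, where 33 of 16539 genes (0.200%) were called over all genes, 0.0181% as higher and 0.181% as lower. The fitted log2 fold change was above 0 for 89 of 91 members (97.8%), against 52.3% of all genes. Its median was 0.27, a ratio of 1.203, against 0.01 over all genes. At an unadjusted p under 0.05, 66 members were higher and 0 lower, against 8.59% of all genes higher. In 63 members (69.2%) each Yap CKO library lay above each control, against 13.0% of all genes, and in 0 members each lay below, against 12.1%. Members ranged only from -0.12 (Ndufaf4, an assembly factor) to 0.55 (Atp5e, the epsilon subunit of F1).

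**Figure D2:**
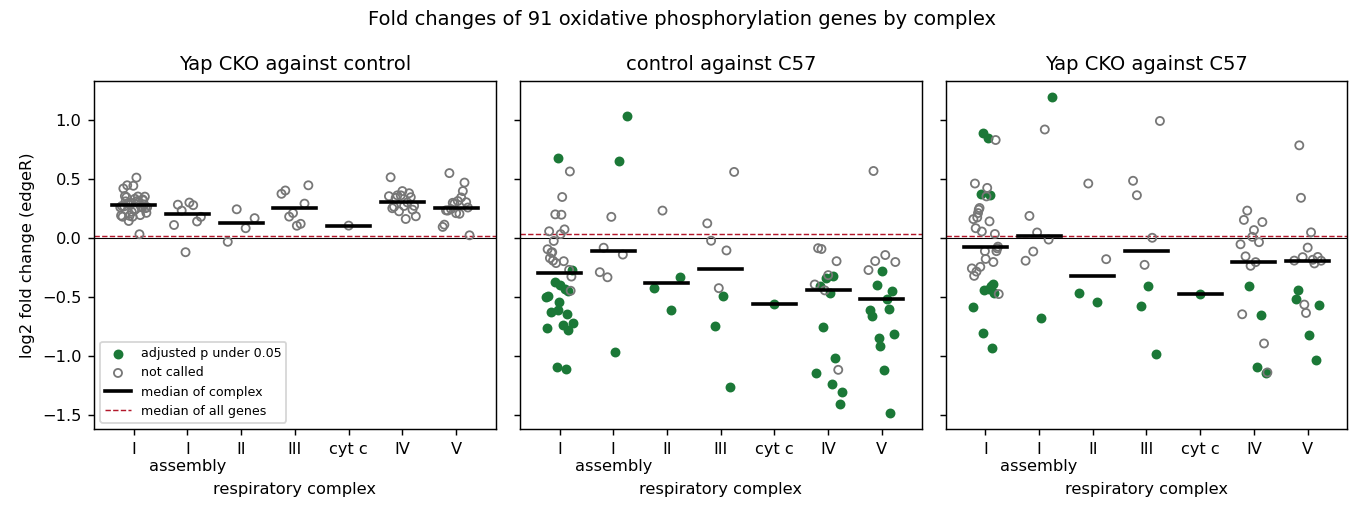
Fold changes of the 91 members by complex in the 3 comparisons. Each circle is a gene, filled where the adjusted p was under 0.05; black bars mark the median of a complex and the dashed line the median of all genes. Yap CKO against control, 89 of 91 circles lie above 0 and none is filled; control against C57, 47 are filled below 0 and 3 above; Yap CKO against C57, 24 below and 5 above.

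By complex, the median log2 fold change of Yap CKO against control was 0.27 for complex I (36 of 36 above 0), 0.20 for its assembly factors (7 of 8), 0.12 for complex II (3 of 4), 0.25 for complex III (8 of 8), 0.30 for complex IV (17 of 17) and 0.26 for complex V (17 of 17). Within complex I, the 29 accessory subunits had a median of 0.29 and the 7 core subunits, which hold the flavin and iron-sulphur clusters, one of 0.25. Complex IV and complex I had the largest medians, and complex II, which also works in the citric acid cycle, the smallest of the complexes. No difference between complexes was tested.

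In complex IV, Cox6a1, the subunit VIa isoform found outside striated muscle, had the smallest p of all members. Cox6a1 was at 141, 94.2 and 72.7 CPM in C57, at 99.4, 95.8 and 99.2 CPM in the controls and at 126, 124 and 122 CPM in Yap CKO. Its Yap CKO libraries lay close together and clear of the controls, with a log2 fold change of 0.34 ± 0.05 SE, adjusted p = 0.065. Cox8a, the broadly expressed form of subunit VIII, was at 172, 160.2 and 149 CPM in the controls against 217, 197 and 197 CPM in Yap CKO (0.34 ± 0.08 SE, adjusted p = 0.097). Cox6b1, which helps to hold the complex IV dimer together, was at 90.3, 83.7 and 85.5 CPM against 113, 120.1 and 99.7 CPM (0.36 ± 0.08 SE, adjusted p = 0.101). In these genes the groups did not overlap, but none passed the threshold.

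Alternative isoforms of complex IV had fitted log2 fold changes above 0, as the common ones did, but not all of them separated the groups. Cox4i1 was at 244, 227 and 240.2 CPM in the controls against 319, 318 and 269.8 CPM in Yap CKO (0.35 ± 0.08 SE, adjusted p = 0.11), and Cox4i2 at 19.1, 16.2 and 17.3 CPM against 26.6, 27.4 and 20.9 CPM (0.51 ± 0.12 SE, adjusted p = 0.11). Cox7a2 had a log2 fold change of 0.27 ± 0.08 SE, adjusted p = 0.17 and its rare muscle form Cox7a1 one of 0.40 ± 0.17 SE, adjusted p = 0.28. Both isoforms of these pairs were higher in each Yap CKO library than in each control. Cox5a (0.25 ± 0.06 SE, adjusted p = 0.12) and Cox5b (0.26 ± 0.06 SE, adjusted p = 0.11), which are partner subunits and not isoforms, also did not overlap between the groups. In Cox7a2l (0.16 ± 0.09 SE, adjusted p = 0.41) and Ndufa4 (0.27 ± 0.19 SE, adjusted p = 0.51) the groups overlapped, since Yap CKO 3 lay below at least 1 control.

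In complex I, Ndufa13, a subunit also known as GRIM-19, was at 86.6, 80.3 and 84.0 CPM in the controls against 117, 119 and 98.9 CPM in Yap CKO (0.42 ± 0.08 SE, adjusted p = 0.084). Ndufa11 was at 45.6, 43.4 and 43.6 CPM against 53.8, 52.9 and 52.9 CPM (0.27 ± 0.06 SE, adjusted p = 0.091), and Ndufa8 at 56.1, 51.4 and 53.2 CPM against 66.4, 67.2 and 63.1 CPM (0.29 ± 0.06 SE, adjusted p = 0.091). Each of these accessory subunits was higher in all 3 Yap CKO libraries than in any control. The X-linked Ndufb11 was at 86.5, 68.9 and 77.6 CPM against 107, 91.4 and 87.6 CPM (0.30 ± 0.10 SE, adjusted p = 0.19). Ndufs1, the largest core subunit, had a value near 0, at 121, 121 and 122 CPM in the controls against 127, 123 and 121 CPM in Yap CKO (0.03 ± 0.06 SE, adjusted p = 0.84). Among the assembly factors, Ndufaf3 came closest to the threshold (0.23 ± 0.07 SE, adjusted p = 0.16), with 25.3, 23.8 and 24.8 CPM in the controls against 30.4, 27.8 and 28.2 CPM in Yap CKO.

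In complex V, Atp5h, subunit d of the peripheral stalk, was at 119, 113 and 117 CPM in the controls against 148, 151 and 135 CPM in Yap CKO (0.31 ± 0.07 SE, adjusted p = 0.095). The 3 genes that encode the same mature subunit c, the ring that turns in the membrane, had similar values. Atp5g2 was at 49.9, 47.3 and 43.9 CPM against 58.3, 56.7 and 57.3 CPM (0.29 ± 0.06 SE, adjusted p = 0.099), Atp5g1 at 62.2, 58.9 and 60.9 CPM against 80.6, 75.5 and 67.4 CPM (0.30 ± 0.08 SE, adjusted p = 0.12), and Atp5g3 at 196, 176 and 183 CPM against 229, 205 and 207 CPM (0.21 ± 0.07 SE, adjusted p = 0.19). Values were smaller for the large subunits of the F1 head: Atp5b had a log2 fold change of 0.11 ± 0.07 SE, adjusted p = 0.48 and Atp5a1 one of 0.09 ± 0.06 SE, adjusted p = 0.49.

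In complex III, Uqcr11 was at 34.8, 32.2 and 35.0 CPM in the controls against 46.7, 48.1 and 39.6 CPM in Yap CKO (0.40 ± 0.09 SE, adjusted p = 0.102), and Uqcr10 at 54.8, 53.3 and 54.1 CPM against 76.0, 75.9 and 57.9 CPM (0.37 ± 0.11 SE, adjusted p = 0.15). Both are small subunits, and in both each Yap CKO library exceeded each control. Uqcrq, which sits beside the cytochrome b subunit, was at 70.6, 67.7 and 67.6 CPM against 101, 108 and 70.7 CPM (0.44 ± 0.15 SE, adjusted p = 0.195), with Yap CKO 3 barely above control 1. Uqcrc2, a core protein, had a smaller value (0.10 ± 0.06 SE, adjusted p = 0.44). In complex II, Sdhb, the iron-sulphur subunit, had a log2 fold change of 0.24 ± 0.06 SE, adjusted p = 0.12, the membrane anchor Sdhd one of 0.17 ± 0.06 SE, adjusted p = 0.23, and Sdha one of -0.03 ± 0.07 SE, adjusted p = 0.86. For Sdha the groups overlapped. Cycs, cytochrome c, lay at 44.9, 45.3 and 44.7 CPM in the controls against 51.2, 51.3 and 42.2 CPM in Yap CKO (0.10 ± 0.09 SE, adjusted p = 0.59), so its groups overlapped.

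The number of calls turned on Yap CKO 3 and on the test. Yap CKO 1 and 2 exceeded every control in 82 of 91 members, and Yap CKO 3 did so in 66. These counts were not made over all genes. Without Yap CKO 3, edgeR called 56 members higher and 0 lower, against 3.90% of all genes higher. With the rod level of each library as a covariate it called 64 higher and 0 lower, against 4.48% of all genes. DESeq2 called 33 higher and 0 lower, against 2.18%, and limma-voom called 0, against 0.0907% of all genes in either direction. When sex entered the edgeR fit as a covariate, Yap CKO 3 carried the comparison with the male controls. There, 0 members were called, against 0.405% of all genes. The members' median was 0.131 and 78 of 91 members were above 0. The sex difference between the groups cannot be told apart from the genotype in Yap CKO 1 and 2. The authors' deposited table of 305 genes holds 0 of the members, and the smallest absolute log2 fold change in it, 0.587, is larger than that of any member here.

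Other gene lists were read from the same fit. The 79 tested proteins of the cytosolic ribosome had a median log2 fold change of 0.30, with 79 of 79 above 0 and 71 higher at an unadjusted p under 0.05. The mitochondrial ribosome had 75 of 77 above 0 and a median of 0.19. Further oxidative phosphorylation subunits and assembly factors outside the name rule had 35 of 43 above 0 and a median of 0.12, with Cyc1 at 0.20 ± 0.06 SE, adjusted p = 0.17. By contrast the tricarboxylic acid cycle had a median of 0.06 (13 of 18 above 0), the mitochondrial membrane and import list one of 0.07 (17 of 24), the 13 subunits encoded in mitochondrial DNA one of 0.10 (10 of 13), and the regulators one of 0.00 (9 of 19). In none of these lists did a gene pass the adjusted threshold in edgeR. The same direction was thus found in ribosomal protein genes, and the medians of the lists of other mitochondrial functions were smaller. The differences between lists were not tested.

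**Figure D3:**
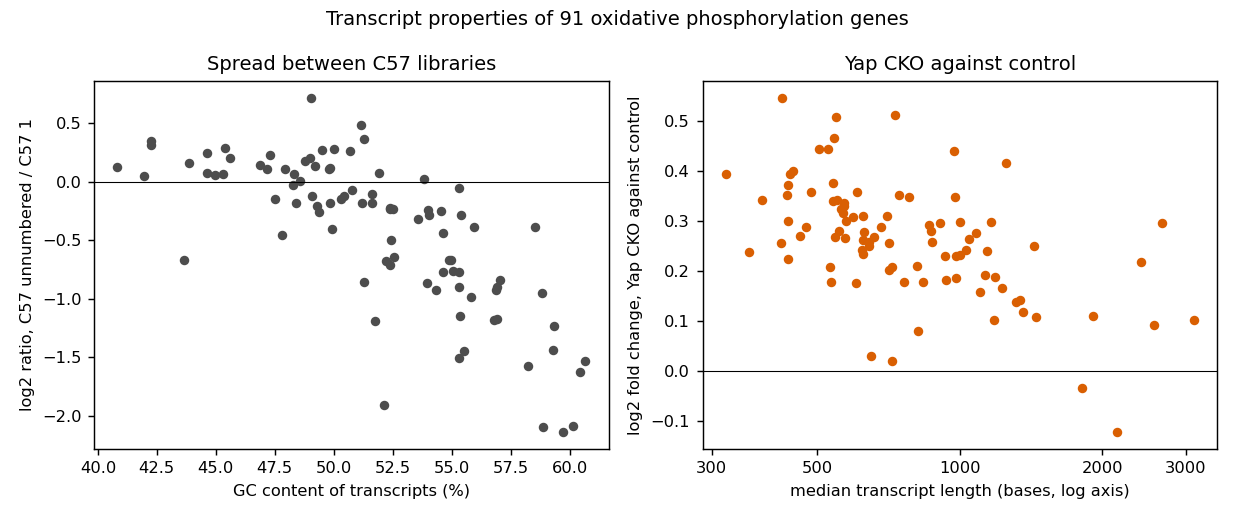
Left: log2 ratio of the unnumbered C57 library over C57 1 for each of the 91 members, against the GC content of its transcripts. Right: log2 fold change of Yap CKO against control, against median transcript length on a log axis. GC-rich members were lower in the unnumbered C57 library (Spearman rho -0.796), and short members had larger fold changes (rho -0.561).

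What the members share besides function is short transcripts: their median transcript length was 710 bases, against 2267 for all protein-coding genes tested. Fold changes between Yap CKO and control were lower in longer genes, over all genes (Spearman rho -0.363, over 14566 genes) and over the members (rho -0.561, over 91). These are descriptions across genes that share the same 6 libraries. Genes under 500 bases had a median log2 fold change of 0.119 over all genes, members included, and 0.348 over the 14 members among them. From 500 to 1000 bases the medians were 0.114 and 0.279 (52 members), and from 1000 to 1500 bases 0.103 and 0.212 (18 members). The members' medians lay above those of all genes in these 3 bins. From 1500 to 2000 bases the 2 members had a median of 0.039, below the 0.051 of all genes. From 2000 to 3000 bases the 4 members had a median of 0.156, against 0.004 for all genes. Over 3000 bases the 1 member was at 0.103, against a median of -0.079 for all genes. GC content of transcripts moved with these fold changes as well, with rho 0.332 over all genes and 0.315 over the members. The members' median GC content was 51.7%, against 51.1% for all protein-coding genes tested. Length and GC content moved with the result, and their part in it was not tested.

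Most members called between C57 at P30 and control at P60 were lower in the controls. These are the same control libraries as above, so the comparisons are not independent. Of the 91 members, 47 fell (51.6%) and 3 rose (3.3%) by edgeR's adjusted p, against 22.4% of all genes lower and 23.1% higher. Calls in either direction made up 54.9% of the members and 45.5% of all 15820 genes. The median log2 fold change was -0.40, which is 1.315-fold lower, against 0.03 for all genes. In 48 members each control lay below each C57 library, against 26.6% of all genes, and in 5 each lay above, against 32.3%. In this comparison age, the floxed allele, 4-OHT, the source series and the meaning of MNU cannot be told apart. All 20 rod genes also fell, with a median log2 fold change of -3.14. Of the other marker lists, 9 of 10 cone genes fell (median -2.29), 7 of 10 Müller glia genes fell and 2 rose (-1.04), 6 of 8 pigment epithelium genes fell and 1 rose (-1.05), and 5 of 5 erythrocyte genes fell (-3.36). The erythrocyte genes summed to 205.5, 116.3 and 22.56 CPM in C57 1, C57 2 and the unnumbered library, and to 6.972 to 15.39 CPM in the P60 libraries. By contrast 5 of 10 ganglion cell genes rose and 0 fell, and 5 of 10 amacrine and horizontal cell genes rose and 1 fell. The part of these cell types in the members' values was not tested.

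By complex, 17 of 36 complex I subunits fell (47.2%) and 1 rose (median log2 fold change -0.30). In complex II 3 of 4 fell (median -0.38) and in complex III 3 of 8 (37.5%, median -0.27). In complex IV 10 of 17 fell (58.8%, median -0.44) and in complex V 12 of 17 (70.6%, median -0.52). Over all genes 22.4% fell and 23.1% rose. The assembly factors of complex I had a median nearer to 0 than any complex, at -0.11, with 1 lower and 2 higher. Complex V and complex IV had the lowest medians of the 5 complexes, and no member of either rose.

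**Figure D4:**
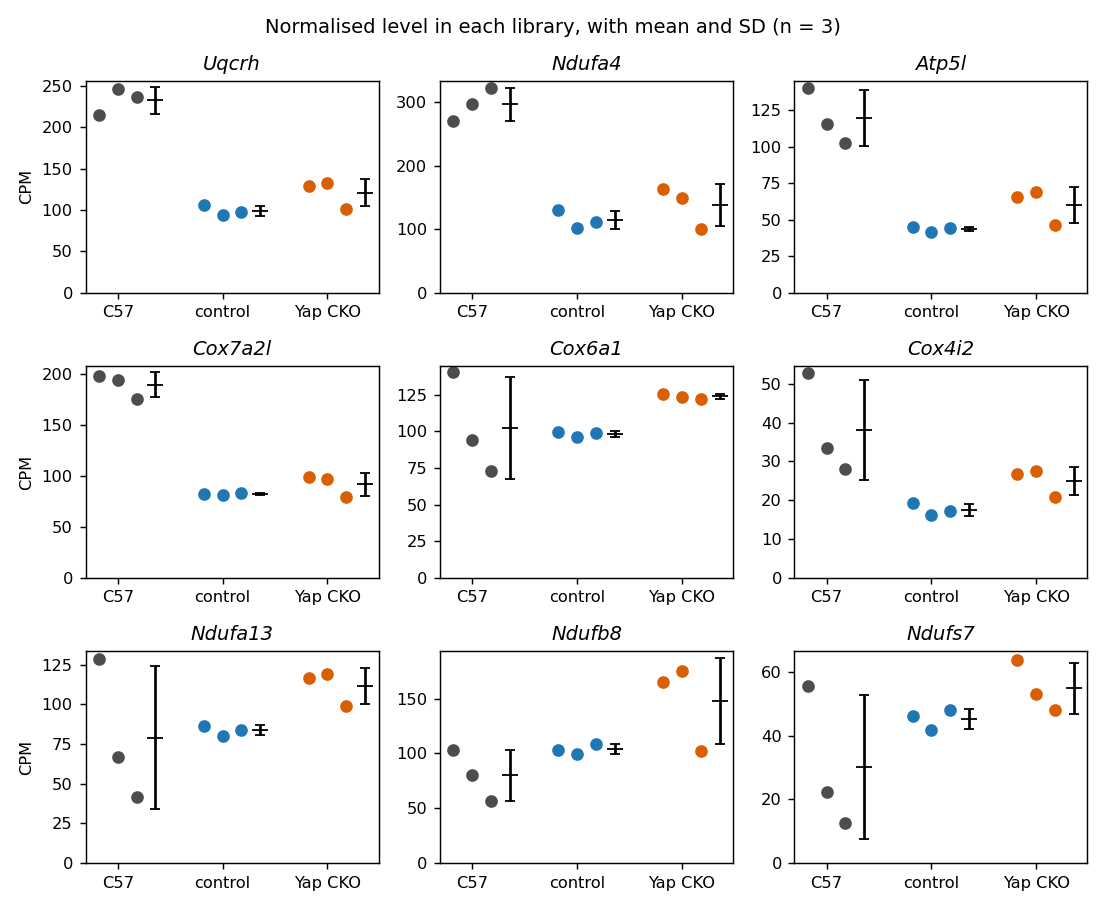
CPM of 9 members in each library (points), with the mean and SD of each group (n = 3). Uqcrh, Ndufa4, Atp5l and Cox7a2l lie far lower in both P60 groups than in C57; Cox6a1 separates Yap CKO from control; Ndufa13, Ndufb8 and Ndufs7 vary widely among C57 libraries.

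The largest falls were spread over the chain. Atp5l was at 139.9, 116 and 102 CPM in C57, at 44.6, 41.8 and 44.2 CPM in the controls and at 65.3, 69.1 and 46.0 CPM in Yap CKO. Atp5l, subunit g of the membrane part of the ATP synthase, fell by 1.49 ± 0.13 SE on the log2 scale (adjusted p = 0.000146). Atp5h was at 227, 269 and 246 CPM in C57, at 119, 113 and 117 CPM in the controls and at 148, 151 and 135 CPM in Yap CKO. Its fall was 1.12 ± 0.11 SE on the log2 scale (adjusted p = 0.00017). In both genes every P60 library lay below every C57 library. Among the c-ring genes, Atp5g2 fell by 0.91 ± 0.26 SE on the log2 scale (adjusted p = 0.023), Atp5g1 by 0.85 ± 0.20 SE on the log2 scale (adjusted p = 0.0101) and Atp5g3 by 0.28 ± 0.10 SE on the log2 scale (adjusted p = 0.047). Atp5c1, the gamma subunit that forms the turning shaft, was at 314, 347 and 308 CPM in C57 and 219.7, 199 and 207 CPM in the controls and fell by 0.66 ± 0.10 SE on the log2 scale (adjusted p = 0.00146).

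In complex IV, Cox7a2l and Ndufa4 had the smallest adjusted p. Ndufa4 was at 271, 297 and 322 CPM in C57, at 129.8, 102 and 112 CPM in the controls and at 164, 149.8 and 100.2 CPM in Yap CKO. Ndufa4 fell by 1.41 ± 0.13 SE on the log2 scale (adjusted p = 0.000145). Cox7a2l was at 198, 194 and 175 CPM in C57, at 82.2, 80.8 and 82.9 CPM in the controls and at 98.9, 96.8 and 78.8 CPM in Yap CKO. Cox7a2l fell by 1.24 ± 0.10 SE on the log2 scale (adjusted p = 8.38e-05). The P60 libraries of both genes lay well under those of C57, and for both Yap CKO 3 was the lowest of the Yap CKO libraries. Cox7c, at 87.9, 69.6 and 55.2 CPM in C57 and 38.7, 32.4 and 35.9 CPM in the controls, fell by 1.02 ± 0.17 SE on the log2 scale (adjusted p = 0.00238).

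Complex IV has several subunits with an alternative isoform, and their values are given side by side. Cox4i2 was at 52.7, 33.4 and 28.1 CPM in C57, at 19.1, 16.2 and 17.3 CPM in the controls and at 26.6, 27.4 and 20.9 CPM in Yap CKO. Cox4i2, the subunit IV isoform linked to low oxygen and lung, fell by 1.15 ± 0.22 SE on the log2 scale (adjusted p = 0.00452). Cox4i1, the common isoform, was at 397, 296 and 222 CPM in C57 and 244, 227 and 240.2 CPM in the controls (-0.40 ± 0.20 SE, adjusted p = 0.13). Per kilobase, Cox4i1 remained well above Cox4i2 in each group, at 196.7 against 48.31 in C57, 152.9 against 22.27 in the controls and 195 against 31.72 in Yap CKO (means, n = 3). Cox7a2, the common form of subunit VIIa, fell by 0.46 ± 0.10 SE on the log2 scale (adjusted p = 0.00637), while its muscle form Cox7a1 stayed between 0.7635 and 1.875 CPM in all libraries (-0.32 ± 0.31 SE, adjusted p = 0.44). Cox5b fell by 0.41 ± 0.10 SE on the log2 scale (adjusted p = 0.014) and its partner subunit Cox5a had a log2 fold change of -0.09 ± 0.11 SE, adjusted p = 0.53. Cox6b1 fell by 0.76 ± 0.10 SE on the log2 scale (adjusted p = 0.000791), and the testis form Cox6b2, under 8 CPM throughout, had -0.45 ± 0.29 SE, adjusted p = 0.25. The changes of partners were not tested against each other.

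The remaining pairs included genes of low counts. Cox8a, the main subunit VIII gene, had a log2 fold change of -0.20 ± 0.13 SE, adjusted p = 0.24, and the muscle form Cox8b, at 0.5548 to 2.682 CPM, one of -1.12 ± 0.40 SE, adjusted p = 0.051. Cox8b was highest in C57 1, and the C57 libraries counted towards the mean of at least 1 CPM that made it a member. Its value is therefore not independent of how it was chosen. Ndufa4l2, a gene known to respond to hypoxia, was at 4.61, 1.95 and 1.39 CPM in C57 and 1.44, 1.06 and 0.737 CPM in the controls. It fell by 1.30 ± 0.46 SE on the log2 scale (adjusted p = 0.049), but its groups overlapped and C57 1 alone was above 2 CPM. The X-linked Cox7b fell by 0.33 ± 0.09 SE on the log2 scale (adjusted p = 0.023), and Cox6a1, which ranged from 72.67 to 140.9 CPM within C57, had -0.10 ± 0.22 SE, adjusted p = 0.74.

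Complex III and its partners were split. Uqcrh was at 215, 246 and 236 CPM in C57, at 106, 93.6 and 97.9 CPM in the controls and at 129, 132 and 102 CPM in Yap CKO. Uqcrh fell by 1.26 ± 0.11 SE on the log2 scale (adjusted p = 0.000102). Uqcrb fell by 0.74 ± 0.12 SE on the log2 scale (adjusted p = 0.00223) and the core protein Uqcrc2 by 0.49 ± 0.10 SE on the log2 scale (adjusted p = 0.00607). The Rieske iron-sulphur protein Uqcrfs1 was flatter, at 91.3, 90.5 and 92.0 CPM in C57 and 83.7, 87.6 and 88.7 CPM in the controls (-0.11 ± 0.09 SE, adjusted p = 0.38). Cytochrome c was at 60.3, 68.8 and 66.0 CPM in C57 and 44.9, 45.3 and 44.7 CPM in the controls and fell by 0.56 ± 0.10 SE on the log2 scale (adjusted p = 0.00312). In complex II, Sdhc, a membrane anchor, fell by 0.61 ± 0.11 SE on the log2 scale (adjusted p = 0.0026), Sdha by 0.42 ± 0.11 SE on the log2 scale (adjusted p = 0.013) and Sdhd by 0.34 ± 0.11 SE on the log2 scale (adjusted p = 0.035), while Sdhb did not pass (0.23 ± 0.16 SE, adjusted p = 0.29).

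In complex I the X-linked accessory subunit Ndufb11 was at 204, 150.5 and 131 CPM in C57 and 86.5, 68.9 and 77.6 CPM in the controls and fell by 1.09 ± 0.18 SE on the log2 scale (adjusted p = 0.00191). Ndufa10 fell by 0.76 ± 0.11 SE on the log2 scale (adjusted p = 0.00138). Of the 7 core subunits, 4 fell (57.1%), and of the 29 accessory subunits, 13 fell (44.8%) and 1 rose, where 22.4% of all genes fell.

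The 3 members that rose all belong to complex I or its assembly. Ndufb2 was at 26.1, 34.3 and 43.2 CPM in C57, at 56.1, 55.4 and 58.3 CPM in the controls and at 71.5, 70.6 and 55.5 CPM in Yap CKO. Ndufb2, an accessory subunit of the membrane arm, rose by 0.68 ± 0.18 SE on the log2 scale (adjusted p = 0.016). Ndufaf8 was at 7.38, 5.26 and 2.85 CPM in C57, at 11.6, 10.3 and 10.2 CPM in the controls and at 13.2, 12 and 11.0 CPM in Yap CKO. Ndufaf8, a small assembly factor, rose by 1.03 ± 0.29 SE on the log2 scale (adjusted p = 0.022). Ndufaf6 was at 4.36, 4.4 and 5.41 CPM in C57 and 8.76, 6.01 and 8.03 CPM in the controls and rose by 0.65 ± 0.19 SE on the log2 scale (adjusted p = 0.028). In each of them every control exceeded every C57 library. Ndufaf5 moved the other way, from 37.4, 41.7 and 40.5 to 21.6, 18.6 and 22.5 CPM, and fell by 0.96 ± 0.12 SE on the log2 scale (adjusted p = 0.000525).

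How many members were called lower depended on the libraries and on the rod level, and so did the calls over all genes. Leaving out 1 library at a time gave 30 to 56 members lower and 0 to 12 higher. The lowest count came without C57 2, where 31.3% of all genes were called in either direction, against 45.5% with no library left out. The 12 higher came without C57 1, where 55.2% of all genes were called. Without control 2, 31 fell, and 33.3% of all genes were called. With the rod level as a covariate, 0 members were called in either direction in edgeR, against 1.42% of all genes. In that fit 1 member was higher and 6 lower at an unadjusted p under 0.05, and the members' median was -0.28. The rod level did not overlap between the groups, at 11.52 to 11.7 in C57 and 7.07 to 9.242 in the controls, so rod level and group cannot be told apart. With sex as a covariate 24 members were lower and 0 higher, and 22.8% of all genes were called in either direction.

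Yap CKO at P60 against C57 uses the same C57 libraries and is therefore set beside the previous comparison, not used as a second test of it. There, 24 members (26.4%) fell and 5 (5.49%) rose, against 20.2% and 20.3% of all genes, and in total 31.9% of members were called against 40.5% of all 15840 genes. The median log2 fold change was -0.16. In 29 members each Yap CKO library lay below each C57 library, against 24.8% of all genes, and in 9 each lay above, against 30.3%. A share lower of 26.4% against 20.2% is near the background. All 24 members that fell also fell in the controls, while 23 fell in the controls only. Since no member was called between Yap CKO and control, that gap is not shown to be a difference between the genotypes.

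The leading falls were again Cox7a2l (-1.09 ± 0.14 SE, adjusted p = 0.000605), Uqcrh (-0.98 ± 0.14 SE, adjusted p = 0.0012), Ndufa4 (-1.15 ± 0.19 SE, adjusted p = 0.00227), Atp5h (-0.82 ± 0.13 SE, adjusted p = 0.00151) and Atp5l (-1.03 ± 0.19 SE, adjusted p = 0.00368). Sdhc had -0.54 ± 0.12 SE, adjusted p = 0.00891. For each of these the value was nearer to 0 than that of the controls. Cycs had -0.47 ± 0.14 SE, adjusted p = 0.023, Uqcrb -0.57 ± 0.14 SE, adjusted p = 0.013 and Sdha -0.47 ± 0.13 SE, adjusted p = 0.018. In complex IV, Cox6b1 (-0.41 ± 0.13 SE, adjusted p = 0.034) and Cox7c (-0.66 ± 0.18 SE, adjusted p = 0.022) fell as well, whereas Cox4i1 (-0.06 ± 0.21 SE, adjusted p = 0.85), Cox4i2 (-0.65 ± 0.24 SE, adjusted p = 0.057) and Cox5a (0.15 ± 0.13 SE, adjusted p = 0.37) did not pass. Of the c-ring genes none passed, with Atp5g2 at -0.64 ± 0.26 SE, adjusted p = 0.0799. By complex, 8 of 36 complex I subunits fell (22.2%) and 4 rose (11.1%), against 20.2% and 20.3% of all genes. In complex II 2 of 4 fell and in complex III 3 of 8 (37.5%). In complex IV 4 of 17 fell (23.5%) and in complex V 5 of 17 (29.4%). The shares of complexes I and IV that fell were near that of all genes.

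Of the 5 that rose, Ndufb2 (0.89 ± 0.20 SE, adjusted p = 0.00877) and Ndufaf8 (1.19 ± 0.30 SE, adjusted p = 0.015) were higher in the controls as well. Ndufc2 (0.36 ± 0.13 SE, adjusted p = 0.048), Ndufab1, which is the mitochondrial acyl carrier protein (0.37 ± 0.13 SE, adjusted p = 0.046), and Ndufb8 (0.84 ± 0.26 SE, adjusted p = 0.034) were called here only. Ndufb8 was at 104, 79.9 and 56.7 CPM in C57, at 103, 99.6 and 109 CPM in the controls and at 165, 175 and 103 CPM in Yap CKO. Yap CKO 1 and 2 exceeded all other libraries for Ndufb8, and Yap CKO 3 did not. Leaving out 1 library gave 8 to 29 members lower and 1 to 18 higher: 8 lower without C57 2 or without Yap CKO 2, 13 without Yap CKO 3, 15 without Yap CKO 1, and 18 higher without C57 1. Over all genes, 40.5% were called in either direction with no library left out. That share was 23.7% without C57 2, 25.6% without Yap CKO 2 and 33% without Yap CKO 3. It was 32.4% without Yap CKO 1 and 47.6% without C57 1. With the rod level as a covariate 0 members were lower, 1 was higher and their median moved to 0.035, while 6.65% of all genes were called. The rod level did not overlap between these groups either, at 5.471 to 9.334 in Yap CKO and 11.52 to 11.7 in C57. Rod level and group therefore cannot be told apart in this fit.

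The C57 libraries were themselves uneven in these genes, and the unevenness touches both comparisons with C57. The median gap between the highest and the lowest library of a group was 0.322 on the log2 scale in C57, 0.126 in the controls and 0.223 in Yap CKO. C57 1 exceeded the unnumbered C57 library by at least 1.5-fold in 33 members, and by at least 2-fold in 16, and C57 2 lay between them in 66. These counts were not made over all genes, so the unevenness is not shown to be particular to the members. The ratio followed GC content, as the plot of transcript properties shows: rho was -0.796 over the 91 members, which share the same pair of libraries. This rho was not computed over all genes. The 31 members with the highest GC (54.4 to 60.7%) had a median log2 ratio of -0.923, unnumbered over C57 1, and the 31 with the lowest GC (40.8 to 49.8%) one of 0.113.

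Single genes show how far this went. Ndufs7 was at 55.6, 22.3 and 12.7 CPM in C57, at 46.1, 41.8 and 48.0 CPM in the controls and at 63.8, 53.1 and 48.1 CPM in Yap CKO. Ndufs7, a core subunit that carries an iron-sulphur cluster, had a log2 fold change of 0.56 ± 0.45 SE, adjusted p = 0.34 from C57 to control. Ndufb7 was at 81.5, 36.7 and 18.1 CPM in C57, and 56.2, 52.8 and 49.9 CPM in the controls (0.20 ± 0.44 SE, adjusted p = 0.74). Uqcrq was at 81.6, 34.4 and 21.4 CPM in C57 and 70.6, 67.7 and 67.6 CPM in the controls (0.56 ± 0.41 SE, adjusted p = 0.301). In these genes the controls lay inside the range of C57. Among the 31 members of highest GC, 8 fell from C57 to control, against 20 of the 31 of lowest GC and 19 of the 29 in between. Over all genes 22.4% fell, and calls over all genes were not split by GC content. The log2 fold change from C57 to control moved with GC content over all protein-coding genes too (Spearman rho 0.259, over 14194 genes). Over the members rho was 0.137. GC content moved with both the spread within C57 and the calls, and its part in them was not tested.

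Subunits encoded in mitochondrial DNA ran the opposite way across the C57 libraries. Their summed level was 26460, 43430 and 70750 CPM in C57 1, C57 2 and the unnumbered library, while the nuclear members summed to 12840, 12280 and 10760 CPM. In the controls the mitochondrial subunits summed to 43110, 41640 and 37290 CPM and in Yap CKO to 40740, 36750 and 49760 CPM. From C57 to control, 5 of 13 fell and 1 rose by edgeR's adjusted p, and the 46.2% called were near the 45.5% of all genes. Several of these genes, such as mt-Co2 and mt-Atp6, lay under 40 CPM in every library beside mt-Co1 at 8589 CPM or more, so their counts are uncertain.

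Of 19 known regulators of these genes, 8 fell (42.1%) and 3 rose (15.8%) from C57 to control, against 22.4% and 23.1% of all genes. In total 57.9% were called, against 45.5% of all genes. Ppargc1a was at 64.2, 71.5 and 85.9 CPM in C57, at 37.8, 31.4 and 33.5 CPM in the controls and at 34.9, 33.0 and 31.4 CPM in Yap CKO. Ppargc1a, the co-activator PGC-1 alpha that drives mitochondrial gene expression, fell from C57 to control by 1.14 ± 0.14 SE on the log2 scale (adjusted p = 0.000541). Ppargc1b fell by 1.96 ± 0.30 SE on the log2 scale (adjusted p = 0.00136), Nrf1 by 0.60 ± 0.10 SE on the log2 scale (adjusted p = 0.00245) and Esrrg by 0.64 ± 0.12 SE on the log2 scale (adjusted p = 0.00451). Pprc1, a relative of Ppargc1a, rose by 1.39 ± 0.11 SE on the log2 scale (adjusted p = 7.02e-05). EdgeR called 0 of the 19 between Yap CKO and control, and Gabpa, the DNA-binding part of GABP, had the smallest p (-0.23 ± 0.07 SE, adjusted p = 0.15).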

How the data were processed

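Bulk RNA-seq of 9 mouse retinas was analysed. The deposited count table gives whole-number read counts per Ensembl gene, not normalized. Per the submitters' processing notes, HISAT2 2.1.0, featureCounts and edgeR were used with GRCm38. The library protocol was directional per the labels, whereas the annotation release and strand setting were not given in the sources used here. Overlapping genes on opposite strands, and members with near-identical processed copies, are therefore uncertain. The authors' deposited table gives log2 fold changes and p-values for 305 genes. Its 9 columns of values per library were not used.

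Symbols, positions and exon lengths came from GENCODE M21 (GRCm38). Total counts per library were 13760765 to 37629264, so the C57 libraries have the least depth. For each comparison its 6 libraries were fitted alone with edgeR 4.0.16 in R 4.3.3 (filterByExpr with a minimum count of 10 and a minimum total of 15, TMM, robust quasi-likelihood F-test). P-values were adjusted by the Benjamini-Hochberg method over all genes tested, with a threshold of 0.05. Every adjusted p printed for a gene is from this edgeR test, and SE is that of the log2 fold change. P-values measure the spread between these libraries, which the labels do not tie to separate litters or batches. The fit was tested on simulated data. Alternatives were RLE and upper-quartile scaling, other count filters, DESeq2 1.42.0, limma-voom (limma 3.58.1), 1 fit over 9 libraries, a replicate block, rod-level and sex covariates, and leaving out each library.

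The members, the lists and the alternatives were chosen with earlier results of these data known. The named genes were up to 3 members per complex with the smallest p, the isoform families, the highest and lowest member per length in each complex, and members called against the direction of their complex. Not all of these are printed for every comparison, and 1 is not reported here. Atp5a1, Ndufs1 and Uqcrc2 between Yap CKO and control, Atp5e, and Cox7c, Ndufb7, Ndufs7 and Uqcrfs1 between control and C57 were chosen after their values were seen. Lists were described by counts and medians and not tested. Promoters came from RefSeq (GRCm38.p6). Of 5 motifs searched there, those of NRF1 and YY1 were shortened after longer forms had been run and their results seen. Alternatives for single genes were summarised for the printed genes only.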

Additional observations from a re-analysis of the deposited data

How the results depend on the processing

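Between Yap CKO and control, 0 members were lower under every alternative, and the 0 higher became 4 with no count filter, 7 at an adjusted p under 0.10, 33 in DESeq2, 64 with the rod-level covariate and 0 to 56 on leaving out 1 library, where 56 came without Yap CKO 3. Over all genes, 83 of 27316 were higher with no count filter and 2.18% in DESeq2. With the rod-level covariate 4.48% were higher, and without Yap CKO 3, 3.90%. All genes were not counted at an adjusted p under 0.10. The members' median log2 fold change moved to 0.131 with the sex covariate and was 0.231 to 0.323 on leaving out 1 library. Between control and C57, the 3 higher and 47 lower became 0 and 0 with the rod-level covariate, 0 and 24 with the sex covariate, and 0 to 12 and 30 to 56 on leaving out 1 library. Between Yap CKO and C57, the 5 higher and 24 lower became 7 and 15 with no count filter, 8 and 29 in DESeq2, 8 and 24 in limma-voom, 8 and 31 in 1 fit over 9 libraries, 1 and 0 with the rod-level covariate, 3 and 17 with the sex covariate, 8 and 30 at an adjusted p under 0.10, and 1 to 18 and 8 to 29 on leaving out 1 library. Calls over all genes moved as well. Between control and C57 they were 45.5% in either direction, and 1.42% with the rod-level covariate. They were 22.8% with the sex covariate and 31.3% to 55.2% on leaving out 1 library. Between Yap CKO and C57 they were 40.5%, and 24.4% with no count filter. DESeq2 gave 43%, limma-voom 42% and 1 fit over 9 libraries 48.1%. They were 6.65% with the rod-level covariate, 37% with the sex covariate and 23.7% to 47.6% on leaving out 1 library. The cause of these moves was not tested.

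Of the single genes printed, these changed sign. Between Yap CKO and control, with the sex covariate, Cox7a2l moved to -0.058, Cycs to -0.093, Ndufa4 to -0.194, Ndufs1 to -0.001 and Sdha to 0.049, and Sdha was 0.008 with upper-quartile scaling and -0.078 to 0.011 on leaving out 1 library. Between control and C57, Cox6a1 moved to 0.087 with the rod-level and 0.023 with the sex covariate, Cox8b to 0.104 with the rod-level covariate and Ndufb7 to -0.041 with the replicate block, and leaving out 1 library gave -0.288 to 0.201 for Cox6a1 and -0.184 to 0.919 for Ndufb7. Between Yap CKO and C57, Cox4i1 moved to 0.004 with no count filter and 0.246 with the rod-level covariate, and ran from -0.243 to 0.176 on leaving out 1 library.

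The replicate numbers did not pair the samples: deviations of same-numbered control and Yap CKO libraries correlated at 0.533, -0.078 and 0.01 over 16539 genes. With the number as a replicate block, 0 members were higher and 0 lower between Yap CKO and control (median 0.262), 2 and 38 between control and C57, and 7 and 19 between Yap CKO and C57, the last pairs on numbered libraries only. Calls over all genes with this block were 0.272%, 36.8% and 35.3% in the same order. Depth limits the lowest members most: Cox7a1, Cox8b and Ndufa4l2 lay under 5 CPM in every library.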

Other observations

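Factors that help to build or run the respiratory chain but fall outside the name rule were mixed from C57 to control. Of 43 tested, 11 fell (25.6%) and 4 rose (9.3%) by edgeR's adjusted p, with a median log2 fold change of -0.21. The share that fell was near the 22.4% of all genes. Sdhaf4, an assembly factor of complex II, was among those that fell, and Usmg5, a small subunit of the ATP synthase, fell from 81.5, 86.3 and 91.8 CPM in C57 to 49.9, 47.6 and 52.9 CPM in the controls. Usmg5 was at 79.2, 91.3 and 52.6 CPM in Yap CKO, so Yap CKO 3 lay with the controls. In the tricarboxylic acid cycle 6 of 18 genes fell and 2 rose from C57 to control, and in the mitochondrial ribosome 11 of 77 fell and 11 rose. Calls made up 44.4% of the cycle genes and 28.6% of the mitochondrial ribosome, against 45.5% of all genes.

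A single library pattern runs through several members of different complexes. For Ndufb8, Uqcrq, Atp5l, Ndufb4 and Ndufa4, chosen after their values were seen, Yap CKO 1 and 2 lay above all 3 controls, while Yap CKO 3 lay near them. Yap CKO 3 was also the library with the lens genes and the lowest rod genes, and its part in the pattern was not tested.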
